A study of Mus musculus with 6 samples.

Results

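The glycolysis and lactate genes, 10 genes of glucose use and lactate handling, were followed by symbol through 6 single-cell count tables of Pdgfra+ mouse lung fibroblasts (FBs) and of alveolar organoids: Slc2a1, Hk2, Pfkp, Aldoa, Gapdh, Pgk1, Eno1, Pkm, Ldha and Slc16a3. All 10 were present in every table, among 30828 to 32285 gene rows. The study compared normal with fibrotic lung FBs and asked how each supports alveolar type 2 epithelial cells (AEC2s). Each condition was 1 droplet library of cells pooled from 3 mice, so no difference between conditions had a replicate check and no p-value was computed. Values are unique molecular identifiers (UMIs) scaled to 1000000 UMIs of a group (CPM), and their 95% intervals cover counting error only, not the spread between mice. Those of levels are exact Poisson intervals, and those of log2 ratios come from the Poisson variance by the delta method.

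The single-dose libraries held GFP+ cells sorted from dissociated lungs of Pdgfra-GFP reporter mice (strain JAX# 007669), 14 days after PBS or bleomycin by oropharyngeal aspiration. The bleomycin dose stands as 2 U/Kg in one label and 4 U/Kg in another. The repetitive libraries held GFP+ cells of PDGFRa-EGFP mice given 3 weekly doses of PBS or of bleomycin, the last of them 0.5 U/Kg and the earlier ones 1 U/Kg, taken 14 days after the last dose. For the organoids, tomato+ AEC2s of tamoxifen-induced SpcCreER × Rosa-td26 mice, in which Cre acts in cells that express surfactant protein C and switches on a tomato reporter, were mixed with GFP+ FBs from lungs given PBS (normal) or 2 U/Kg bleomycin (fibrogenic), and cultured in matrigel for 2 weeks. The labels give the mixture as 10:1 with AEC2s named first, whereas the study's methods describe an excess of FBs. The AEC2 donors were thus the same kind of mouse in both organoid libraries. The mice were 10 to 14 weeks old by the study's methods. All FBs carried the GFP reporter, controls included.

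Glycolysis splits glucose into pyruvate in the cytosol and yields ATP without oxygen. Slc2a1 (GLUT1) brings glucose in, Hk2 traps it as glucose 6-phosphate, Pfkp catalyses the committed phosphofructokinase step, and Aldoa, Gapdh, Pgk1, Eno1 and Pkm carry the carbon on to pyruvate. Ldha converts pyruvate to lactate and Slc16a3 (MCT4) exports it. Many of these genes are known targets of hypoxia-inducible factors, which bind DNA at a core of ACGTG or GCGTG, and lung myofibroblasts (MyoFBs) are known for high glycolysis.

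On GRCm38, with GENCODE M21 gene models, Slc2a1 spans chr4:119108711-119137983 (plus strand), Hk2 chr6:82725025-82774454 (minus), Pfkp chr13:6579768-6648777 (minus), Gapdh chr6:125161715-125166467 (minus), Pgk1 chrX:106187100-106203699 (plus) and Eno1 chr4:150236721-150248879 (plus). Pkm spans chr9:59656368-59679375 (plus), Ldha chr7:46841475-46855627 (plus) and Slc16a3 chr11:120948480-120960868 (plus). Aldoa is annotated as 2 adjoining genes, at chr7:126795234-126800751 and chr7:126800790-126809108 (both minus), and its single row cannot tell them apart. The deposited UMIs were given per gene, so exons and untranslated regions were not separated.

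The 160 bases before an annotated start site are shown for the 5 members with the highest ratio of cultured over fresh FBs (Slc16a3, Eno1, Pgk1, Gapdh and Pkm) and for Pfkp, the member with the lowest. Sequences are from the RefSeq promoter table (GRCm38.p6), 5′ to 3′ on the gene's strand, at the first start site listed there. Capitals mark each ACGTG, which reads CACGT where it lies on the other strand, and each GCGTG, which then reads CACGC.
Slc16a3 (chr11:120948907-120949066, plus): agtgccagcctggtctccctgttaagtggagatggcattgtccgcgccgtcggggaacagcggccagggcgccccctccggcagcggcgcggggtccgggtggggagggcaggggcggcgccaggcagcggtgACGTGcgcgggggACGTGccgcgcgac
Eno1 (chr4:150236548-150236707, plus): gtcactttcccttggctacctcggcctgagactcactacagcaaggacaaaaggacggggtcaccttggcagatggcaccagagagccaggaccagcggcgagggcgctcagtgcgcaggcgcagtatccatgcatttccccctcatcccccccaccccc
Pgk1 (chrX:106186940-106187099, plus): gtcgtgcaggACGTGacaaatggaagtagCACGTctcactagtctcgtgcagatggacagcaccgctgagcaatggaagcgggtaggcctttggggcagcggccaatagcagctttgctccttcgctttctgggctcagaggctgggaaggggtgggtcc
Gapdh (chr6:125165774-125165933, minus): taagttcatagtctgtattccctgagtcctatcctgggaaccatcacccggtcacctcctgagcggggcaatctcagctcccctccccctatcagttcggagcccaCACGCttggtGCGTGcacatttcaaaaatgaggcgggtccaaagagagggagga
Pkm (chr9:59656416-59656575, plus): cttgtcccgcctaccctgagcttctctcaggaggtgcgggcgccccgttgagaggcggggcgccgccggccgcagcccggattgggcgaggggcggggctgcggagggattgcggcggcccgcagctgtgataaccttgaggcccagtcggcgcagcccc
Pfkp (chr13:6648772-6648931, minus): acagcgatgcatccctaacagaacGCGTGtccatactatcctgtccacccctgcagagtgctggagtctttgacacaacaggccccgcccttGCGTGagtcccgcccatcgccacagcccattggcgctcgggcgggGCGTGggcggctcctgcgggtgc

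In these stretches Slc16a3 and Pgk1 held 2 ACGTG sites each and 0 GCGTG sites, Pfkp held 3 GCGTG and Gapdh 2, both with 0 ACGTG, and Eno1 and Pkm held 0 of either. With 250 bases, Eno1 had a GCGTG at each of its listed starts and Pkm an ACGTG at another start than the one shown. Over the 250 bases before a start, 7 of the 10 members had an ACGTG and 5 had a GCGTG in at least 1 of their annotated start sites. Counted in the same way, 18.5% of 27025 genes had an ACGTG and 30.9% a GCGTG. Per window of that length the shares were 16.6% and 28.2% of 32851. The 10 members had 16 windows, some of them overlapping, and genes with more start sites had more bases searched. A CACGTG matches ACGTG on both strands and was counted as 1 site. A match in these letters is a description and not a binding site.

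The fresh libraries held 7201081 (single PBS), 11869967 (single bleomycin), 64697147 (repetitive PBS) and 68354458 (repetitive bleomycin) UMIs, and the organoid libraries 211680702 (normal) and 238618743 (fibrogenic). Barcodes with at least 2000 UMIs and at most 25% mitochondrial UMIs were kept. The repetitive bleomycin library (4693 of 10737 barcodes under 2000 UMIs) and the fibrogenic organoid library (2976 of 8894) stood apart in their share of shallow barcodes. Gating on marker genes gave 879 and 842 FBs after a single dose of PBS and bleomycin, 5371 and 5556 FBs after repetitive dosing, 2123 and 3139 organoid FBs, and 1839 and 1576 organoid epithelial cells. Pdgfra stood at 515 and 296 CPM in the single-dose FBs (PBS, bleomycin), 590 and 371 in the repetitive FBs and 76.4 and 71.2 in the organoid FBs (normal, fibrogenic), and the immune marker Ptprc at 7.57 CPM or less in all of them. No pair of libraries shared more than 30 barcodes, or more than 0.456% of the smaller library. The single-dose tables list other gene rows than the repetitive and organoid tables, so ratios were taken within an experiment, or between organoid and repetitive FBs, whose tables list the same genes. Single-dose levels stand beside the others only in the plot of levels and in the likeness of genes over groups.

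Bleomycin FBs had more Hk2, Gapdh, Pgk1 and Ldha and less Aldoa than PBS FBs in both dosing experiments, in every case by less than 2-fold. Ldha stood at 242 CPM in PBS and 354 in bleomycin FBs after a single dose, and at 147 and 187 after repetitive dosing. The log2 ratios (of CPM + 1) were 0.55 (0.46 to 0.64) and 0.35 (0.31 to 0.39). Ldha was thus higher after bleomycin in both, with intervals that left out 0. Aldoa, the aldolase that splits the 6-carbon sugar, stood at 437 and 299 CPM after a single dose and at 268 and 193 after repetitive dosing, log2 ratios of −0.55 (−0.62 to −0.47) and −0.47 (−0.50 to −0.43). It was the only member lower in both experiments.

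At the top of the pathway, Hk2 was at 25.6 CPM in single-dose PBS FBs and 42.5 in bleomycin FBs, and at 39.5 and 48.7 in the repetitive FBs, log2 ratios of 0.71 (0.46 to 0.96) and 0.30 (0.22 to 0.37). The glucose carrier Slc2a1 was at 13.7 and 18.9 CPM after a single dose (log2 ratio 0.44, 0.09 to 0.78) but at 26.5 and 22.5 after repetitive dosing (−0.23, −0.33 to −0.13). Its direction differed between the experiments. Pfkp did likewise with the signs exchanged, at 15.2 and 11.3 CPM (−0.40) and 26.0 and 28.2 CPM (0.11). Of all genes tested in both experiments, 4.75% had intervals on opposite sides of 0, as these 2 members did.

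Further down the pathway, Gapdh stood at 377 and 513 CPM after a single dose and 197 and 240 after repetitive dosing, log2 ratios of 0.45 and 0.28. Pgk1, the first ATP-yielding enzyme, stood at 60.7 and 80.3 and at 43.7 and 50.4 CPM, log2 ratios of 0.40 and 0.20. Both were higher after bleomycin in both experiments. Eno1 (94.3 and 99.1 CPM, then 28.2 and 31.6) and Pkm (215 and 204, then 132 and 145) had intervals that included 0 after a single dose, at 0.070 (−0.075 to 0.21) and −0.076 (−0.17 to 0.022), and that lay above 0 after repetitive dosing, at 0.16 and 0.14. The lactate exporter Slc16a3 was near the floor in fresh FBs, at 0.979 and 2.14 CPM after a single dose and 1.42 and 2.45 after repetitive dosing, with log2 ratios of 0.67 (−0.031 to 1.37) and 0.51 (0.26 to 0.76). With barcodes thinned to 2000 UMIs the repetitive ratio was −0.24, from 21 and 17 UMIs, so its direction did not hold at that depth.

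Over the 10 members the median log2 ratio was 0.42 after a single dose, with 7 above 0, beside a median of 0.089 over the 10077 genes tested, of which 57.4% were above 0. With a pseudocount of 10 CPM that median was 0.22, with barcodes thinned to 2000 UMIs 0.21 and with means of barcode CPM 0.27. Depth differed there, with a median of 6968 UMIs per FB in PBS and 11720.5 in bleomycin (10611 and 8490 after repetitive dosing). After repetitive dosing the median log2 ratio was 0.18, with 8 above 0, beside 0.11 over 14362 genes, of which 63.2% were above 0. No member passed 2-fold in either experiment, where 8.14% and 7.36% of all genes were higher and 3.37% and 1.94% lower by 2-fold or more. The repetitive median was 0.067 above that of all genes. Summed over the members, FBs had 1481 and 1624 CPM after a single dose and 908 and 949 CPM after repetitive dosing (PBS, bleomycin). These values pool the FB subsets described below. Within alveolar and adventitial FBs, gated by markers, the medians were 0.38 and 0.36 after a single dose, beside 0.032 and 0.079 over all genes. After repetitive dosing they were 0.053 and −0.0064, beside 0.11 and 0.094.

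**Figure D1:**
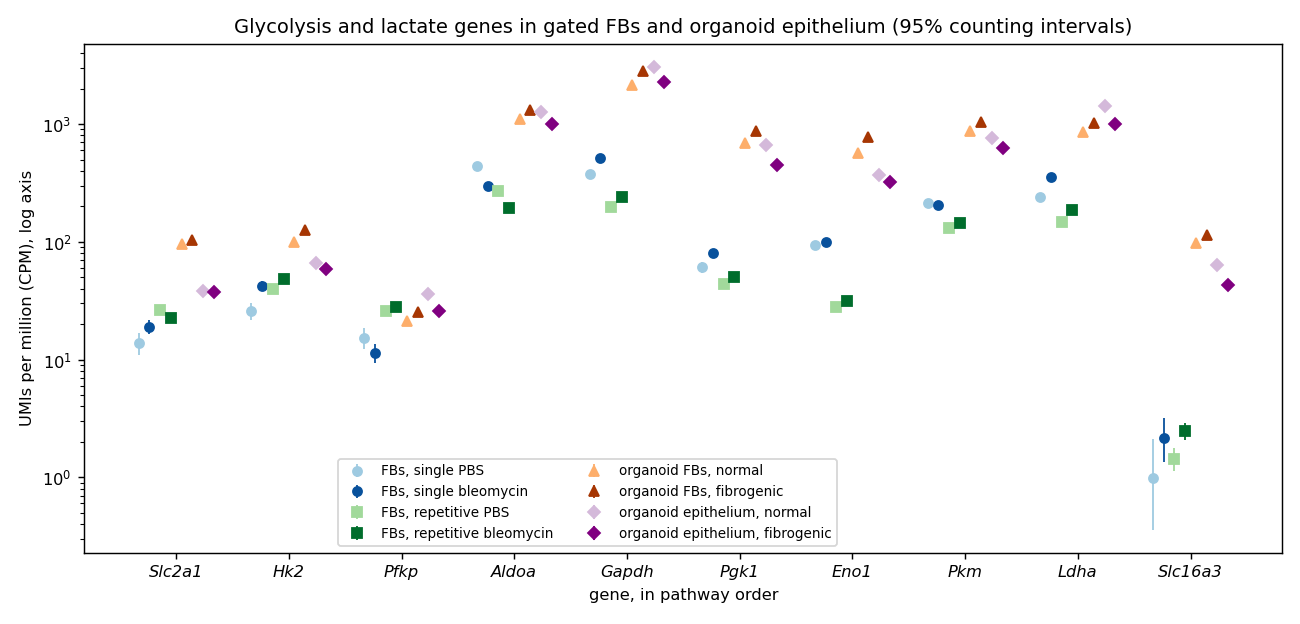
CPM (log axis) of each gene, in pathway order, in the 4 fresh FB groups, the 2 organoid FB groups and the 2 organoid epithelial groups. Each point is 1 library with its 95% Poisson interval. Organoid cells lie above the repetitive FBs for every gene but Pfkp, and Slc16a3 has the widest gap, from 1.42 CPM in repetitive PBS FBs to 96.9 CPM in normal organoid FBs.

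**Figure D2:**
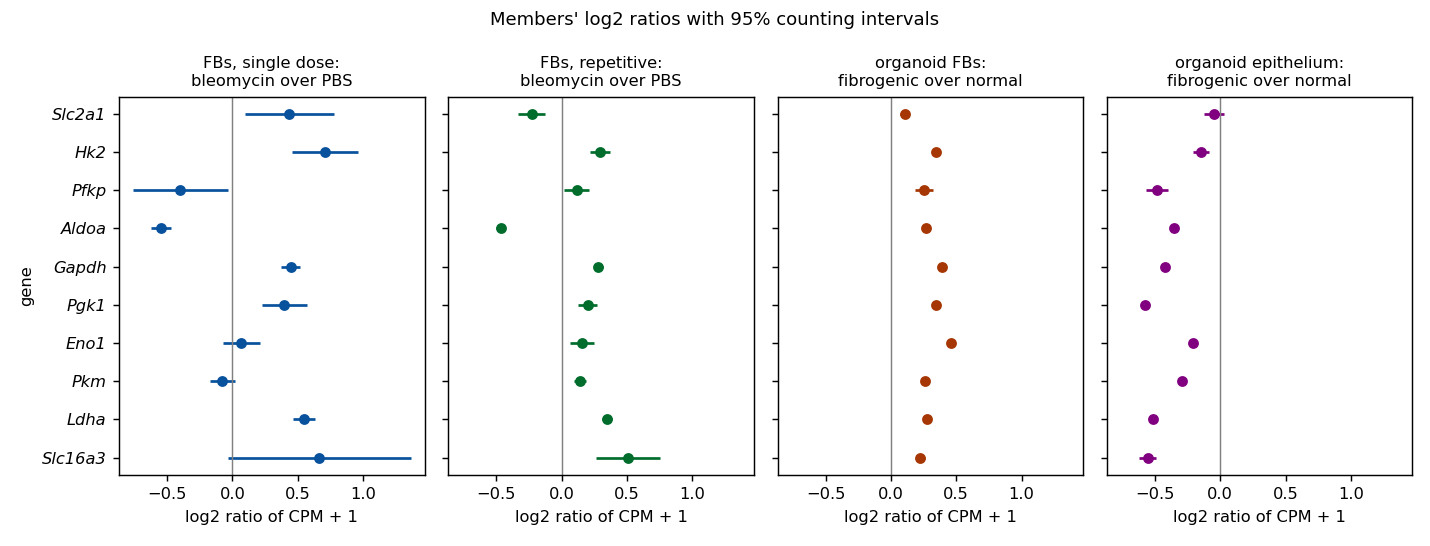
Log2 ratios of CPM + 1 with 95% counting intervals for the 10 genes in 4 comparisons, 1 library against 1 library each. Aldoa lies left of 0 in both fresh comparisons, all 10 genes lie right of 0 in organoid FBs, and 9 of 10 intervals lie left of 0 in organoid epithelium.

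Within normal lung, Hk2 and Pfkp had the highest ratios between FB subsets. FBs were divided by markers into alveolar FBs (Npnt, Tcf21 and others), adventitial FBs (Pi16, Dcn and others), Sfrp1+ FBs and MyoFB-like cells (Cthrc1 with at least 3 more markers). In single-dose PBS, Hk2 was at 14.1 CPM in 685 alveolar FBs and 57.3 in 131 adventitial FBs, and in repetitive PBS at 25.5 in 4161 alveolar and 92.3 in 776 adventitial FBs, log2 ratios of 1.95 (1.45 to 2.45) and 1.81 (1.69 to 1.94). Pfkp was at 11.5 and 30.8 CPM, and at 18.7 and 61.3 CPM, log2 ratios of 1.34 and 1.66. Both genes were thus more than 2-fold higher in adventitial FBs in both PBS libraries, where 3.62% and 6.49% of all genes were. Slc16a3 passed 2-fold in repetitive PBS alone, at 1.06 CPM in alveolar and 3.40 in adventitial FBs (1.09, 0.63 to 1.56), from 49 and 28 UMIs. Gapdh had log2 ratios of 0.086 and 0.74, and Eno1 and Ldha had ratios between −0.018 and 0.16.

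After bleomycin, Hk2 was higher in one of these subsets and lower in the other. In alveolar FBs it was higher, at 22.4 CPM after a single dose (log2 ratio to PBS 0.63, 0.17 to 1.10) and at 34.8 after repetitive dosing (0.43, 0.29 to 0.58). With Sfrp1+ FBs left among the others these ratios were 1.14 and 0.83, and thinned to 2000 UMIs the repetitive one was 0.87. In adventitial FBs it was lower, at 35.8 CPM (−0.66, −1.26 to −0.063) and 35.1 CPM (−1.37, −1.55 to −1.19). Of all genes, 3.12% after a single dose and 2.41% after repetitive dosing had intervals on opposite sides of 0 in these subsets. The adventitial over alveolar ratio of Hk2 came to 0.66 after a single bleomycin dose and 0.0084 (−0.18 to 0.20) after repetitive dosing, where the interval included 0. The repetitive adventitial FBs of the bleomycin library were shallower (a median of 3986 UMIs, against 10330.5 in PBS); thinned to 2000 UMIs per barcode, the log2 ratio was −0.92. Of all genes, 1.47% were lower by 2-fold or more in that comparison.

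Pfkp stayed higher in adventitial FBs, at 18.4 CPM against 10.2 in alveolar FBs after a single dose of bleomycin and at 45.2 and 18.9 after repetitive dosing. The log2 ratios were 0.80 (0.011 to 1.59), under 2-fold and from 18 and 30 UMIs, and 1.21 (1.01 to 1.42). In the latter comparison 5.24% of all genes were higher by 2-fold or more. Sfrp1+ FBs, few in PBS lungs (58 and 423 barcodes) and many after bleomycin (426 and 2379), held Hk2 at 77.1 and 79.7 CPM in PBS and 53.5 and 59.5 in bleomycin. Within the bleomycin libraries their Hk2 exceeded that of alveolar FBs by log2 1.22 (0.85 to 1.59) and 0.75 (0.62 to 0.89), and 3.06% of genes were higher by 2-fold or more in the former. The Hk2 of all FBs therefore mixed subsets whose shares and levels both differed, and the part of each in the pooled ratio was not tested. Hk2 was lower after bleomycin in adventitial FBs and higher in alveolar FBs. Its level was also lower in Sfrp1+ FBs, but no ratio or interval was taken there, and the single-dose PBS level came from 37 UMIs. Summed over the members, alveolar FBs had 860 and 830 CPM after repetitive dosing (PBS, bleomycin). Adventitial FBs had 1113 and 1038 and Sfrp1+ FBs 1008 and 928. Each sum was lower after bleomycin, whereas that of all FBs was higher. After a single dose the sums were 1503 and 1587, 1371 and 1776, and 1461 and 1446 CPM.

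**Figure D3:**
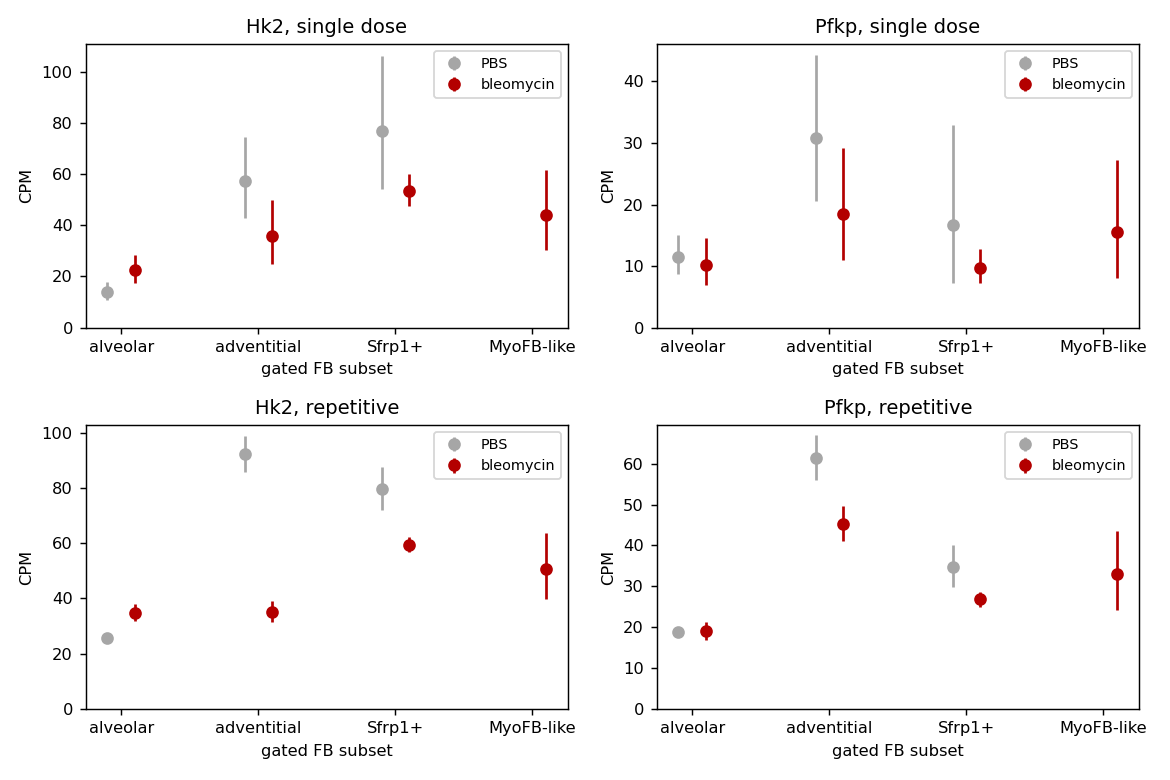
Hk2 and Pfkp (CPM, 95% Poisson intervals, axis from 0) in gated FB subsets of the 4 fresh libraries, PBS in grey and bleomycin in red. In both experiments Hk2 is higher after bleomycin in alveolar FBs and lower in adventitial FBs; MyoFB-like cells were found in the bleomycin libraries alone.

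MyoFB-like cells, 38 after a single dose and 85 after repetitive dosing, with 0 in both PBS libraries, had higher levels of most members than alveolar FBs of their own library. After repetitive dosing all 10 were higher, with a median log2 ratio of 0.80 beside −0.053 over all genes, of which 46% were above 0. Gapdh stood at 192 CPM in alveolar FBs and 408 in MyoFB-like cells (1.09, 0.96 to 1.21), and Slc16a3 at 1.57 and 9.59 CPM (2.04, 1.27 to 2.81). These were the only members past 2-fold, and Slc16a3, with 14 and 24 UMIs, was under the 50 UMIs in either group asked of all genes. Of the 9 members above that limit 1 passed 2-fold, where 4.61% of genes did. Pgk1 (43.6 and 79.5 CPM), Eno1 (27.1 and 49.3), Pkm (129 and 230) and Pfkp (18.9 and 32.9) followed, with log2 ratios of 0.77 to 0.85.

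After a single dose 8 of 10 were higher in MyoFB-like cells and the median was 0.34, beside −0.085 over all genes, of which 43.5% were above 0, with 3.04% of genes higher by 2-fold or more and no member among them. Pfkp (12 and 30 UMIs in MyoFB-like and alveolar FBs) and Slc16a3 (3 and 7) were under the limit asked of all genes. Of the 8 members above it 6 were higher, with a median of 0.24. Hk2 (22.4 and 44.1 CPM, log2 ratio 0.95), Gapdh (464 and 811, 0.80) and Pkm (194 and 246, 0.34) had intervals above 0, and the other 7 members did not. With means of barcode CPM the median over the 10 members was 0.17. Without the 5% of barcodes with most UMIs, which took 13 of the 38 cells, it was −0.18, so its direction did not hold without those barcodes. The same step left the repetitive median at 0.38 over 61 cells. MyoFB-like cells had a median of 18283.5 and 12970 UMIs in the 2 libraries, against 11781 and 8291 in alveolar FBs. Thinned to 2000 UMIs and gated again, the median log2 ratios were 0.23 and 0.43, over 18 and 34 MyoFB-like cells.

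Cycling FBs of the repetitive bleomycin library, 23 barcodes with at least 3 of 8 proliferation markers, had all 10 members above alveolar FBs, where 46.7% of all genes were. Past 2-fold were 7, among them Slc16a3 from 6 and 24 UMIs, under the limit asked of all genes. Of the 9 members above that limit 6 passed 2-fold, where 11.1% of genes did. Gapdh stood at 826 CPM in cycling and 192 in alveolar FBs (log2 ratio 2.10) and Pgk1 at 143 and 43.6 (1.69). These cycling FBs were also deeper, with a median of 29702 UMIs against 8291 in alveolar FBs, and the part of depth was not tested. In organoids, 218 (normal) and 353 (fibrogenic) cycling FBs had median log2 ratios of 0.13 and 0.12 to the FBs that were not cycling, beside 0.017 and −0.020 over all genes. The members lay between −0.17 and 0.50 (normal) and between −0.18 and 0.45 (fibrogenic). The standard deviation over all genes but the mitochondrial ones was 0.67 and 0.65. The 14 cycling FBs of the single-dose bleomycin library had Gapdh at 849 and Pgk1 at 127 CPM, and no cycling FB was gated in single-dose PBS.

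Slc16a3 UMIs of the repetitive libraries came from immune cells as well as FBs. In PBS, 177 of its 285 UMIs lay in 230 immune barcodes and 85 in FBs, at 123 and 1.42 CPM. In bleomycin, 80 of 252 lay in 276 immune barcodes and 143 in FBs, at 33.4 and 2.45 CPM. Over all barcodes it was thus lower after bleomycin (4.41 and 3.69 CPM), whereas within FBs it was higher. Its level in FBs was 1.16% of that in immune cells in PBS and 7.36% in bleomycin. The same share was 0.298% and 1.20% for the immune marker Tyrobp and 0.282% and 1.09% for Ptprc, higher in bleomycin too, and the part of immune RNA in the FB value was not tested. In the 80 endothelial barcodes of repetitive PBS, Slc16a3 had 0 UMIs, which allows up to 2.80 CPM, above its FB level. Hk2 stood at 0.934 CPM there, from 1 UMI, against 39.5 CPM in FBs.

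In organoids the FBs and the epithelium differed in direction. With fibrogenic FBs, all 10 members were higher in the FBs themselves, with a median log2 ratio of 0.27 beside −0.01 over 15108 genes, of which 47.1% were above 0. In the epithelium grown with them all 10 were lower, with a median of −0.39 beside 0.04 over 13777 genes, of which 60.6% were above 0. No member passed 2-fold in either, as 0.311% and 0.298% of genes did upward and 0.913% and 0.152% downward. Summed over whole libraries the opposite directions were hidden: the 10 members came to 7120 and 7514 CPM (normal, fibrogenic), with a median log2 ratio of 0.13.

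Pgk1 stood at 685 CPM in normal and 868 in fibrogenic organoid FBs (log2 ratio 0.34, 0.33 to 0.35), and at 664 and 445 CPM in the epithelium (−0.57, −0.60 to −0.55). Ldha stood at 853 and 1031 CPM in FBs (0.27) and at 1415 and 992 in epithelium (−0.51). Both were thus higher in one compartment and lower in the other. Slc16a3, at 96.9 and 113 CPM in FBs (0.23) and 64.1 and 43.3 in epithelium (−0.56), showed the same. Eno1 had the highest ratio in FBs, from 564 to 778 CPM (0.46), and Gapdh went from 2140 to 2801 CPM (0.39) in FBs and from 3033 to 2262 (−0.42) in epithelium. Aldoa (1095 and 1322 CPM in FBs, 1271 and 997 in epithelium), Pkm (875 and 1051, 762 and 624), Hk2 (99.6 and 127, 65.5 and 59.0) and Pfkp (21.1 and 25.4, 36.2 and 25.6) likewise had intervals on opposite sides of 0. Slc2a1, at 96.2 and 104 CPM in FBs and 38.6 and 37.3 in epithelium, had the smallest ratios, and its epithelial interval (−0.12 to 0.030) included 0. Intervals above 0 in FBs and below 0 in epithelium were thus found for 9 of 10 members, and for 4.42% of all genes tested in both. Genes with more UMIs have narrower intervals and leave out 0 at smaller ratios.

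Each compartment held some marker RNA of the other. Sftpc, the surfactant gene of AEC2s, was at 1025 and 796 CPM in organoid FBs (normal, fibrogenic) against 68384 and 61274 in epithelium, and Col1a1 at 21.9 and 40.9 CPM in epithelium against 2950 and 3177 in FBs. Its part in the ratios was not tested. Fibrogenic cultures held more FB barcodes (3139) than epithelial ones (1576), where normal cultures held 2123 and 1839.

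Among epithelial types, AEC2-like cells had the lowest median ratio. AEC2-like (1073 and 805 barcodes), AEC1-like (289 and 298) and PATS-like cells (pre-alveolar type 1 transitional state, 156 and 217) were gated on marker genes. In AEC2-like cells all 10 members were lower with fibrogenic FBs, from Slc2a1 (37.7 and 31.8 CPM, −0.24) to Pgk1 (681 and 402 CPM, −0.76, −0.79 to −0.73). The median was −0.55, beside 0.025 over 12367 genes, of which 56.5% were above 0 and 0.178% lower by 2-fold or more. Hk2 stood at 60.3 and 38.2 CPM (−0.64), Ldha at 1573 and 1102 (−0.51) and Slc16a3 at 57.9 and 34.5 (−0.73). All 10 intervals lay below 0. Thinned to 2000 UMIs and gated again (71 and 59 barcodes), Hk2 alone changed direction there (1.05), from 4 and 7 UMIs. Pgk1 came to −0.37 and Slc16a3 to −0.094.

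In AEC1-like cells 8 of 10 were lower, with a median of −0.21 beside 0.040 over all genes, of which 57.9% were above 0. Pfkp (44.5 and 31.7 CPM, −0.47) and Slc16a3 (59.9 and 43.8, −0.44) were the lowest. In PATS-like cells 9 of 10 were higher, by at most 0.23 (Gapdh, 1859 and 2182 CPM), with a median of 0.090 beside −0.018 over all genes, of which 45.7% were above 0, and Slc16a3 alone was lower (62.3 and 54.0 CPM, −0.20). For 5 members (Aldoa, Gapdh, Eno1, Pkm and Slc2a1) the interval lay below 0 in AEC2-like and above 0 in PATS-like cells, as it did for 1.86% of all genes. When barcodes were thinned to 2000 UMIs and gated again, 78 and 102 PATS-like and 71 and 59 AEC2-like barcodes remained. The PATS-like median then turned to −0.0049 and the AEC2-like median stayed at −0.49. Sequencing depth was alike in the AEC2-like cells of the 2 libraries, with medians of 42613 and 40514 UMIs, as was their Sftpc, at 85911 and 87894 CPM.

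**Figure D4:**
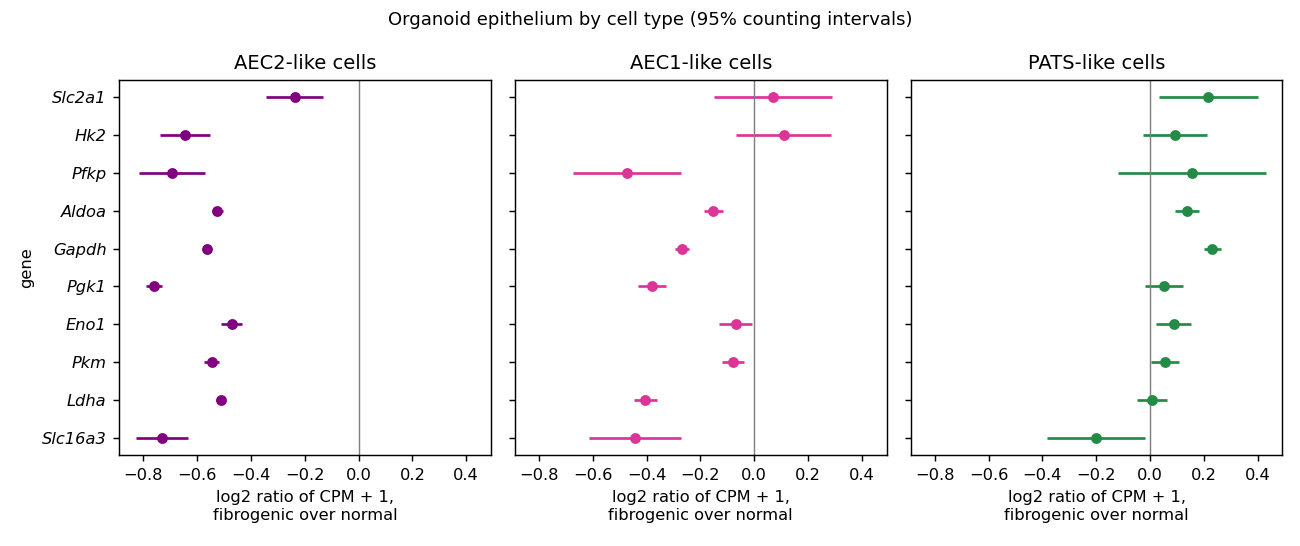
Log2 ratios of CPM + 1, fibrogenic over normal organoids, for the 10 genes in 3 gated epithelial types, with 95% counting intervals. All 10 genes lie left of 0 in AEC2-like cells, 8 in AEC1-like cells and 1 in PATS-like cells.

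Barcode by barcode, the summed CPM of the members in AEC2-like cells had a median of 7371 with normal FBs (quartiles 4809 and 10144) and 4063 with fibrogenic FBs (2496 and 7170). The cells spread widely and the distributions overlapped, but their middle shifted. In PATS-like cells the medians were 4533 and 4855, and in organoid FBs 5264 and 6633. Cells of 1 library are not replicates of a condition, so these are descriptions.

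**Figure D5:**
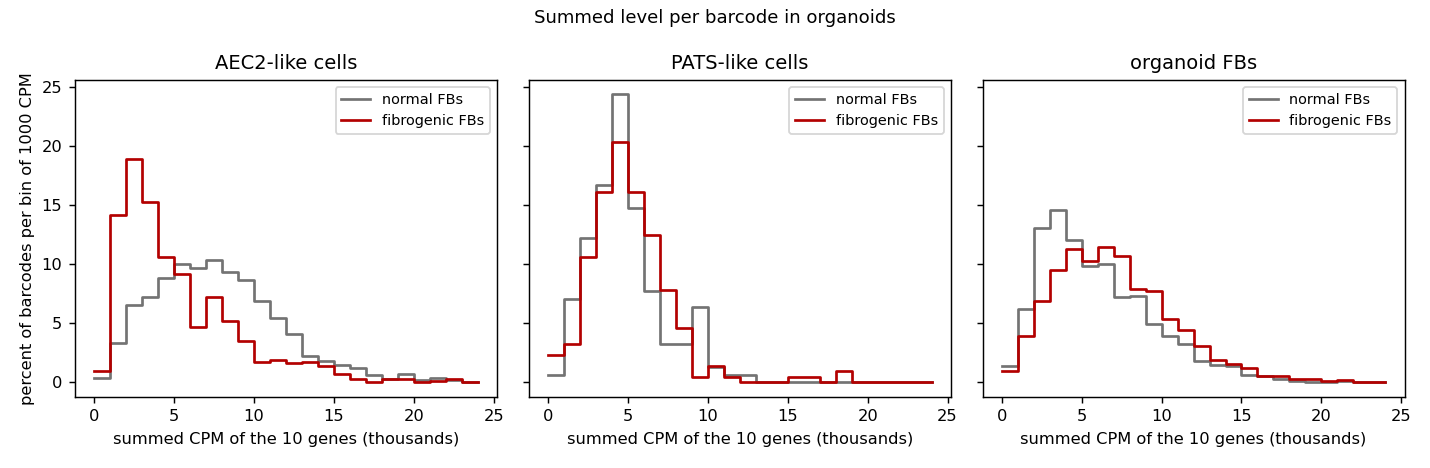
Distribution over barcodes of the summed CPM of the 10 genes, in percent of barcodes per bin of 1000 CPM, in normal (grey) and fibrogenic (red) organoids. The red curve lies to the left in AEC2-like cells and to the right in organoid FBs. In PATS-like cells the curves largely overlap without coinciding (medians of 4533 and 4855 CPM). Left out are 2, 1, 2, 5, 1 and 2 barcodes above the axis limit (normal then fibrogenic, panel by panel).

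PATS-like cells had more Hk2 and less Ldha than AEC2-like cells in both organoid cultures. Hk2 stood at 60.3 CPM in AEC2-like and 137 in PATS-like cells of normal organoids (log2 ratio 1.17, 1.06 to 1.27), and at 38.2 and 146 in fibrogenic organoids (1.90, 1.79 to 2.01). Ldha stood at 1573 and 635 CPM (−1.31, −1.35 to −1.26) and at 1102 and 639 (−0.79, −0.83 to −0.74). AEC1-like cells also had less Ldha than AEC2-like cells, with log2 ratios of −0.74 (normal) and −0.63 (fibrogenic). Hk2 RNA was thus higher and Ldha RNA lower in PATS-like cells of both cultures, whereas the lactate exporter Slc16a3 was not lower in either. Hk2 was the only member higher by 2-fold or more in either, where 16.4% (normal) and 14.7% (fibrogenic) of genes were. Ldha was the only member lower by as much, in normal organoids, where 12.3% of genes were.

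Eno1 (338 and 443 CPM, then 243 and 470) and Slc2a1 (37.7 and 52.8, then 31.8 and 61.6) were also higher in PATS-like cells in both, with log2 ratios of 0.95 and 0.93 in fibrogenic organoids. Gapdh and Pgk1 had log2 ratios of −0.75 and −0.78 in normal organoids and of 0.043 and 0.033 in fibrogenic ones. The median over the members was −0.16 (beside 0.22 over all genes) in normal and 0.46 (beside 0.19) in fibrogenic organoids, where centring on all genes gave 0.26. Gapdh stood at 3128 and 2118 CPM in AEC2-like cells and at 1859 and 2182 in PATS-like cells (normal, fibrogenic).

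Organoid FBs had far more of these transcripts than fresh ones. Normal organoid FBs over repetitive PBS FBs gave log2 ratios past 1 for 9 of 10 members, with a median of 2.63 beside −0.13 over all genes, of which 12.8% were higher by 2-fold or more. Slc16a3 went from 1.42 to 96.9 CPM (5.34, 5.15 to 5.52), Eno1 from 28.2 to 564 (4.27) and Pgk1 from 43.7 to 685 (3.94). Gapdh went from 197 to 2140 CPM (3.44), Pkm from 132 to 875 (2.72), Ldha from 147 to 853 (2.53), Aldoa from 268 to 1095 (2.03), Slc2a1 from 26.5 to 96.2 (1.82) and Hk2 from 39.5 to 99.6 (1.31). Pfkp alone was lower, from 26.0 to 21.1 CPM (−0.29, −0.38 to −0.20). Culture, dissociation and depth (a median of 10611 UMIs per fresh FB and 49800 per organoid FB) all differed between these libraries and cannot be told apart; thinned to 2000 UMIs, the median was 2.60.

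Shares of isoenzymes are given as UMI shares with exact (Clopper-Pearson) 95% intervals. Slc16a3 made up 13.2% (10.7 to 16.1) of the 643 UMIs of the lactate carriers Slc16a1 and Slc16a3 in repetitive PBS FBs. In repetitive bleomycin FBs it made up 10.6% (8.97 to 12.3) of 1354 UMIs, so most UMIs of this pair were Slc16a1 in both. It made up 43.8% (26.4 to 62.3, of 32 UMIs) in MyoFB-like cells of that library, 66.0% and 72.8% in normal and fibrogenic organoid FBs, 51.6% and 43.6% in AEC2-like cells, and 88.0% and 87.0% in PATS-like cells. The share was thus lower in the pooled repetitive FBs than in organoid FBs. Pfkp made up 37.5% (35.6 to 39.6) of phosphofructokinase UMIs in alveolar and 74.6% (71.1 to 77.8) in adventitial FBs of repetitive PBS, but 13.0% in normal organoid FBs.

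Hk2 made up 61.5% of the UMIs of Hk1 and Hk2 in alveolar and 79.2% in adventitial FBs of repetitive PBS, and 65.7% and 57.7% in repetitive bleomycin. In organoids it made up 56.4% and 51.5% in AEC2-like cells and 83.0% and 83.7% in PATS-like cells (normal, fibrogenic). Ldha made up 81.2% (80.4 to 81.9) of lactate dehydrogenase A and B UMIs in repetitive PBS FBs, 86.3% (85.7 to 86.9) in bleomycin FBs and 96.4% (93.9 to 98.2) in MyoFB-like cells. After a single dose the shares were 88.0% in PBS FBs, 93.8% in bleomycin FBs and 98.4% in MyoFB-like cells. PATS-like cells kept a high Ldha share (96.3% and 94.8%) although their Ldha level was lower.

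Among the other pathway genes, Bpgm stood out in fresh FBs. This mutase makes 2,3-bisphosphoglycerate from a glycolytic intermediate, a reaction best known in red cells. It went from 13.2 to 84.7 CPM after a single dose (log2 ratio 2.59) and from 11.5 to 76.4 after repetitive dosing (2.63). In MyoFB-like cells it stood at 247 and 513 CPM, against 59.7 and 54.2 in alveolar FBs of the same libraries. It was lower in fibrogenic (21.5 CPM) than in normal organoid FBs (41.5 CPM), the lowest ratio (−0.92) of the listed genes there.

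Of all genes, 57.4% (single-dose FBs), 63.2% (repetitive FBs), 60.6% (organoid epithelium) and 47.1% (organoid FBs) were above 0, against which the counts of each list stand. Of the 17 other glycolytic genes, 8 had enough UMIs (50 in either group) in single-dose FBs, with 3 above 0 and a median of −0.25, and 10 in repetitive FBs, with 5 above 0 and a median of 0.088. In organoid epithelium 1 of 11 was above 0 (median −0.32), with Aldoc the lowest (43.6 and 25.4 CPM, −0.76), and in organoid FBs 9 of 11 were (median 0.13). The glucose and lactate carriers had 4 of 8 above 0 in organoid epithelium (median 0.046) and 5 of 8 in organoid FBs (0.022), and the PFKFB and PDK regulators 4 of 10 (−0.031) and 6 of 10 (0.057). In fresh FBs the carriers had 2 of 4 above 0 after a single dose (median −0.21) and 4 of 8 after repetitive dosing (−0.011). In each, 1 carrier was higher by 2-fold or more, where 8.14% and 7.36% of all genes were. Slc16a1 and Slc16a3 together had 38 and 338 UMIs after a single dose (PBS, bleomycin), 6 and 23 of them from Slc16a3. Those FBs held 6127304 and 10731704 UMIs. In alveolar FBs Slc16a1 went from 5.12 to 32.2 CPM after a single dose (2.44, 1.88 to 3.00). The regulators had 2 of 6 (−0.60) and 3 of 10 (−0.15) above 0. Of 8 genes of pyruvate entry into mitochondria, 1 was above 0 in each fresh comparison, with medians of −0.12 and −0.061. None of the pentose phosphate genes passed 2-fold in the 4 main comparisons, with medians of −0.093 and 0.040 (fresh FBs), −0.0040 (epithelium) and 0.15 (organoid FBs).

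Of 17 hypoxia-related genes, 8 of 14 measured were above 0 after a single dose, 6 of 16 after repetitive dosing, 7 of 17 in organoid epithelium and 13 of 17 in organoid FBs, where 57.4%, 63.2%, 60.6% and 47.1% of all genes were. Ddit4, a stress-induced inhibitor of growth signalling, was higher after bleomycin in both (2.77 and 17.8 CPM, then 1.26 and 7.14), with log2 ratios of 2.32 and 1.85. After repetitive dosing Adm (201 and 79.6 CPM, −1.33) was lower by 2-fold or more, and after a single dose Mxi1 (39.3 and 16.9) and Bnip3 (52.4 and 24.7) were. Neither Adm, Mxi1 nor Bnip3 was lower by 2-fold in both experiments, where 3.37% (single) and 1.94% (repetitive) of all genes were lower by as much. In each experiment 2 listed genes, Ddit4 among them, were higher by 2-fold or more, where 8.14% and 7.36% of all genes were. Egln3, an oxygen-sensing hydroxylase, was the lowest in AEC2-like cells (18.4 and 7.51 CPM, −1.19). In PATS-like cells Egln3 was the highest of the list instead, at 3.69 and 10.0 CPM (1.23, 0.72 to 1.74). Of 16 listed genes measured there 13 were above 0, beside 45.7% of all genes, against 5 of 16 in AEC2-like (beside 56.5%) and 4 of 16 in AEC1-like cells (beside 57.9%). The listed genes thus had ratios on both sides of 0 in fresh FBs. The serine branch had 4 of 4 genes above 0 after a single dose (median 0.79), 4 of 4 after repetitive dosing (0.37), 2 of 5 in organoid epithelium (−0.0067) and 5 of 5 in organoid FBs (0.46). In organoid FBs Psat1 (40.3 and 60.3 CPM) and Phgdh (104 and 153) had the highest ratios of these, 0.57 and 0.56. From repetitive PBS FBs to normal organoid FBs Phgdh went from 4.07 to 104 CPM.

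Of 8 listed near copies of members, Eno1b is shown, the copy of Eno1. It stood at 0.285 CPM in repetitive PBS FBs beside 28.2 for Eno1, and at 4.91 CPM in normal organoid FBs beside 564. Reads that match both copies could be missing from both rows, and how many was not tested.

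Over 13 gated groups of fresh FBs and 12 of organoid cells, the genes outside all lists whose log2 CPM was most like the members' mean were Mif, Vdac2, Fam162a, Eif3i, Ube2l3, Psmb4, Galk1, Pafah1b3, Mrto4 and Desi1. The fresh and cultured groups formed 2 separate clusters, and the likeness over both mainly reflected that gap. Within each cluster Eif3i (Pearson r of 0.84 over fresh and 0.80 over organoid groups), Fam162a (0.58 and 0.90) and Vdac2 (0.60 and 0.68) stayed like the members, while Mif (0.20 and 0.81) did so in organoids alone, and Pafah1b3 turned (0.54 and −0.55). The fresh groups come from both dosing experiments, whose tables list other gene rows, and groups of 1 library share its depth and handling, and these values are descriptions. Each member is itself part of that mean, which raises its own r beside those of outside genes. Of the members, Pgk1 was close to the mean in both clusters (0.89 and 0.88), and Pfkp in neither (0.12 and 0.0063). Over fresh groups Slc2a1 (−0.10), Aldoa (0.21) and Hk2 (0.29) were also low, and the remaining members stood at 0.56 or more.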

How the data were processed

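Droplet RNA-Seq of single cells covered 6 libraries, 1 per condition, grouped by their sample titles. The authors aligned reads to mm10 with Cell Ranger 3.0.1 (submitters' processing notes, which also name Seurat 3) and deposited raw UMI counts, with gene symbols in rows and cell barcodes in columns. The methods name Gencode M17 without saying for which libraries; 30830 and 30828 genes were listed for the single-dose libraries and 32285 for the others. Depth ranged from 7201081 to 238618743 UMIs, so rare transcripts are least precise in the single-dose libraries.

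Counts were summed over gated barcodes (Python 3.11.15, numpy 2.4.6, scipy 1.17.1, pandas 2.3.3), scaled to 1000000 UMIs of a group (CPM) and compared as log2 ratios with a pseudocount of 1, which understates changes of low genes. Ratio intervals came from the Poisson variance by the delta method. A barcode was kept at 2000 or more UMIs and 25% or less mitochondrial UMIs. A marker counted at 100 CPM or more. Lung FBs held at least 80% of the class markers' UMIs as FB markers and fewer than 3 mural and 3 mesothelial markers. Organoid barcodes were epithelium at 80% or more epithelial marker UMIs and FBs at 10% or less. Of the gates, 14 to 535 barcodes per library lay near a limit. Gates were applied in the order cycling, MyoFB-like, Sfrp1+, alveolar, adventitial, and in organoids cycling, AEC1-like, PATS-like, AEC2-like. Their limits were set after the counts were seen. Doublets were not called; organoid barcodes with both kinds of markers were set aside as mixed (210 and 425). Of all genes, those with at least 50 UMIs in either group gave the background.

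The members, the other pathway lists and the marker genes were chosen with earlier results of these data known. Named were the members, the 2 highest and 2 lowest of the other pathway genes per comparison, near copies, the 10 genes most like the members and gate markers; other pathway genes were named after their values were seen. The ratio step was tested on simulated data. Alternatives were a pseudocount of 10 CPM, centring on the median gene, barcodes of 500 UMIs, 10% mitochondrial UMIs, means of barcode CPM, no cycling barcodes, thinning to 2000 UMIs, members with 50 UMIs in each group, no barcodes among the 5% with most UMIs and, added after seeing the data, stricter gates, organoid barcodes of 10000 UMIs and no Sfrp1 gate.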

Additional observations from a re-analysis of the deposited data

Results flagged for a closer look

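Results are listed here where the same contrast gave opposite directions in a pair of groups, each with a counting interval that left out 0. With 1 library per condition none of these differences was tested. After bleomycin, Pfkp was lower in single-dose FBs (log2 ratio −0.40) and higher in repetitive FBs (0.11), and Slc2a1 was higher in single-dose FBs (0.44) and lower in repetitive FBs (−0.23). Of all genes tested in both experiments, 4.75% had intervals on opposite sides of 0.

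Hk2 was higher after bleomycin in alveolar FBs and lower in adventitial FBs, at 0.63 and −0.66 after a single dose and 0.43 and −1.37 after repetitive dosing. Pkm did the opposite after a single dose (−0.23 in alveolar and 0.62 in adventitial FBs). Of all genes, 3.12% and 2.41% differed in this way after a single dose and after repetitive dosing.

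Between organoid FBs and organoid epithelium, fibrogenic over normal, 9 of 10 members differed in direction, as 4.42% of all genes did with the same signs. The pairs (FBs, then epithelium) were 0.34 and −0.15 for Hk2, 0.25 and −0.48 for Pfkp, 0.27 and −0.35 for Aldoa, 0.39 and −0.42 for Gapdh, 0.34 and −0.57 for Pgk1, and 0.46 and −0.21 for Eno1. For Pkm they were 0.26 and −0.29, for Ldha 0.27 and −0.51, and for Slc16a3 0.23 and −0.56.

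Between AEC2-like and PATS-like cells, 5 members differed in direction, as 1.86% of all genes did with the same signs. The pairs (AEC2-like, then PATS-like) were −0.53 and 0.14 for Aldoa, −0.56 and 0.23 for Gapdh, −0.47 and 0.088 for Eno1, −0.55 and 0.056 for Pkm, and −0.24 and 0.22 for Slc2a1.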

How the results depend on the processing

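No paired analysis was possible because each condition was 1 library without replicate numbers, and for the same reason no replicate could be left out. The main medians (log2) were 0.42 and 0.18 in FBs (single, repetitive), −0.39 in organoid epithelium, 0.27 in organoid FBs, 0.34 in single-dose MyoFB-like cells and 0.46 in PATS-like over AEC2-like cells (fibrogenic organoids). Of 61 alternative values, 44 lay within the main value's counting interval, and 1 changed direction: single-dose MyoFB-like cells gave −0.18 without the 5% of barcodes with most UMIs. With a pseudocount of 10 CPM the single-dose FBs gave 0.22 and organoid epithelium −0.36. Centring gave 0.067 in repetitive FBs, −0.43 in organoid epithelium, 0.28 in organoid FBs and 0.26 in PATS-like over AEC2-like cells. Means of barcode CPM gave 0.24 in repetitive FBs, −0.40 in organoid epithelium, 0.24 in organoid FBs and 0.64 in PATS-like over AEC2-like cells. Without cycling barcodes the organoid epithelium gave −0.41 and the organoid FBs 0.26. Thinned barcodes were gated again, so the thinned groups did not hold the same cells. Organoid epithelium then held 469 and 599 barcodes (normal, fibrogenic), against 1839 and 1576. Thinning to 2000 UMIs gave 0.21 in single-dose FBs, −0.27 in organoid epithelium and 0.23 in organoid FBs. The organoid FBs gave 0.29 without the deepest barcodes. The cause of these shifts was not tested.

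A change of direction was counted only where the main interval left out 0. Of the further alternative values, 417 lay within the main value's interval, 130 lay outside it and 3 changed direction, after thinning. These were the median of PATS-like cells, fibrogenic over normal (−0.0049), Slc16a3 in repetitive FBs (−0.24, from 21 and 17 UMIs) and Hk2 in AEC2-like cells (1.05). The last came from 4 and 7 UMIs in the 71 and 59 barcodes that still passed that gate. Slc16a3 in fresh FBs rests on few UMIs.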
